A study of Mus musculus with 31 samples.

Results

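The protein-coding genes Mcl1, Ccnd3, Odc1 and Mat2a, 4 of the 485 genes of the table, were followed across 31 libraries of T cells from the mouse choroid plexus. The genes were chosen by results of these same data. Mcl1 and Mat2a were selected on the difference between housing conditions in CD4+ T cells, Ccnd3 on the same difference in CD8+ T cells, and Odc1 on the difference between CD4+ and CD8+ T cells. In each of those comparisons the values of the gene are therefore a description, with no test, and the tests given here are those of the comparisons that did not choose it.

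Each library was made from 6 to 20 T cells (CD45+ CD11b- CD3+) sorted as CD4+ or CD8+ from the choroid plexus, which lines the ventricles of the brain and produces cerebrospinal fluid. Female C57BL6/J mice lived either in an enriched environment (EE), with running wheels, shelters and toys in a spacious cage, or in a standard environment (SE), with fewer mice and no objects in a medium-sized cage, and this housing began 4 weeks after birth and lasted 4 weeks. There were 9 CD4 EE, 8 CD4 SE, 7 CD8 EE and 7 CD8 SE libraries, and animals of one housing condition in an experiment shared a cage, so cage and housing cannot be told apart. Library titles also carry a first number, 1 (19 libraries) or 2 (12 libraries), whose meaning the labels do not give. Numbers 1 and 2 were on 6 and 3 CD4 EE, 5 and 3 CD4 SE, 3 and 4 CD8 EE, and 5 and 2 CD8 SE libraries. The main fits of housing had no term for this number.

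Mcl1 encodes an anti-apoptotic member of the BCL2 family with a short-lived protein, and T cells need it to survive. Ccnd3 encodes cyclin D3, which activates the kinases CDK4 and CDK6 and drives cells out of G1 when T cells divide. Odc1 encodes ornithine decarboxylase, the first and rate-limiting enzyme of polyamine synthesis, and Mat2a encodes the catalytic subunit of the methionine adenosyltransferase that makes S-adenosylmethionine, the methyl donor of the cell and, once decarboxylated, the donor of aminopropyl groups for polyamines. All these pathways are known to be turned up when T cells are activated.

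The counts came from unique molecular identifiers (UMIs) and were divided by the authors by 1 size factor per library, and these normalised counts are the unit of every level below. After ±, levels carry their SD and log2 differences their standard error. The UMI total over the 485 genes ran from 1910 to 26395 per library with a median of 5097. It lay between 1910 and 10089 in libraries with first title number 1 and between 7657 and 26395 in those with number 2, so values of a single library with number 1 rest on few molecules. The cell type of every library was checked against its defining markers. Cd4 was at 0 in all 14 CD8 libraries and was detected in 16 of 17 CD4 libraries, up to 18.9. CD4 SE replicate 2, a library of 2657 UMIs, held no Cd4, and its 0 allows a level of up to 7.62, so the marker does not settle its cell type at this depth. The sum of Cd8a and Cd8b1 was at 0 in all 17 CD4 libraries and between 2.07 and 26.5 in CD8 libraries. The study left out CD4 samples with Cd8a or Cd8b transcripts, so the zeros of the CD4 libraries are partly a result of that choice. Transcripts of the choroid plexus epithelium were present in all groups, at a summed level of Ttr and Enpp2 of 114 to 263 in CD4 EE, 76.4 to 205 in CD4 SE, 74.9 to 312 in CD8 EE and 85.9 to 227 in CD8 SE, although only 2 of the 10 epithelial markers and 1 of 11 myeloid markers (Cst3) were in the table. Their part in the levels of the 4 genes was not tested.

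Mcl1 lies on chromosome 3 (95658788 to 95663176, plus strand, GRCm38 with GENCODE M21 genes), Mat2a on chromosome 6 (72432799 to 72439558, minus strand), Odc1 on chromosome 12 (17544794 to 17551505, plus strand) and Ccnd3 on chromosome 17 (47505051 to 47599691, plus strand). The promoters of Mcl1 and Mat2a, the pair of genes chosen together for CD4+ T cells, and of Odc1, the gene chosen for cell type, are shown as annotated by RefSeq on GRCm38.p6, from 250 bases before to 50 bases after the transcription start, 5′ to 3′ on the strand of the gene. Capitals mark GC boxes (GGGCGG or its reverse complement CCGCCC), the binding motif of SP1-type factors.
Mcl1 promoter, chr3:95658471-95658770, plus strand: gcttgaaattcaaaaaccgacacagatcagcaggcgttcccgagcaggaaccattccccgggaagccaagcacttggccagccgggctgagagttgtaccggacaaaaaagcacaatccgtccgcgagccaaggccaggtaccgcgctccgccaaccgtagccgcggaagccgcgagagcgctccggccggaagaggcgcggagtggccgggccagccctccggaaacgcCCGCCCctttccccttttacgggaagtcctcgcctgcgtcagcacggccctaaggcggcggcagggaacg
Mat2a promoter, chr6:72439507-72439806, minus strand: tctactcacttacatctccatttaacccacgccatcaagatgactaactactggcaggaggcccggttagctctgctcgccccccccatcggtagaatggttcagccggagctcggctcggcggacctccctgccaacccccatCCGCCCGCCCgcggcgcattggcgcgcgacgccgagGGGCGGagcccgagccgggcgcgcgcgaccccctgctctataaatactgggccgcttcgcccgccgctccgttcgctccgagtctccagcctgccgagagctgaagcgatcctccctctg
Odc1 promoter, chr12:17544623-17544922, plus strand: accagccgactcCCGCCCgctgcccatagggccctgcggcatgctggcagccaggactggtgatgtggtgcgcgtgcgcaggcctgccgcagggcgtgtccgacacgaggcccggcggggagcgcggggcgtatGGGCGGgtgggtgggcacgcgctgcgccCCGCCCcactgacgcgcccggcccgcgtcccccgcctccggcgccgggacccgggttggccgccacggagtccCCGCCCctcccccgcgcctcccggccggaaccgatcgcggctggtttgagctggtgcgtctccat
The Mcl1 promoter held 1 GC box, the Mat2a promoter 3 (of which the first and the second overlap) and the Odc1 promoter 4, while 35.7% of the 32851 promoters of this length in the table held at least 1. The GC content of these promoters was 65.7% for Mcl1, 67% for Mat2a and 78% for Odc1, against a median of 52.7% over all promoters. A TATA box (TATAAA, found in 13.6% of promoters) stood 32 bases before the start of Mat2a and was found in neither of the others. The E-box CACGTG (in 7.15% of promoters), the heat shock element core GAANNTTC (in 7.86%) and the STAT element TTCNNNGAA (in 8.30%), each searched on both strands, were not found in these windows. Ccnd3 has 2 annotated starts, whose promoters each held 2 GC boxes, and the one at the second start also held 1 match to GAANNTTC.

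**Figure D1:**
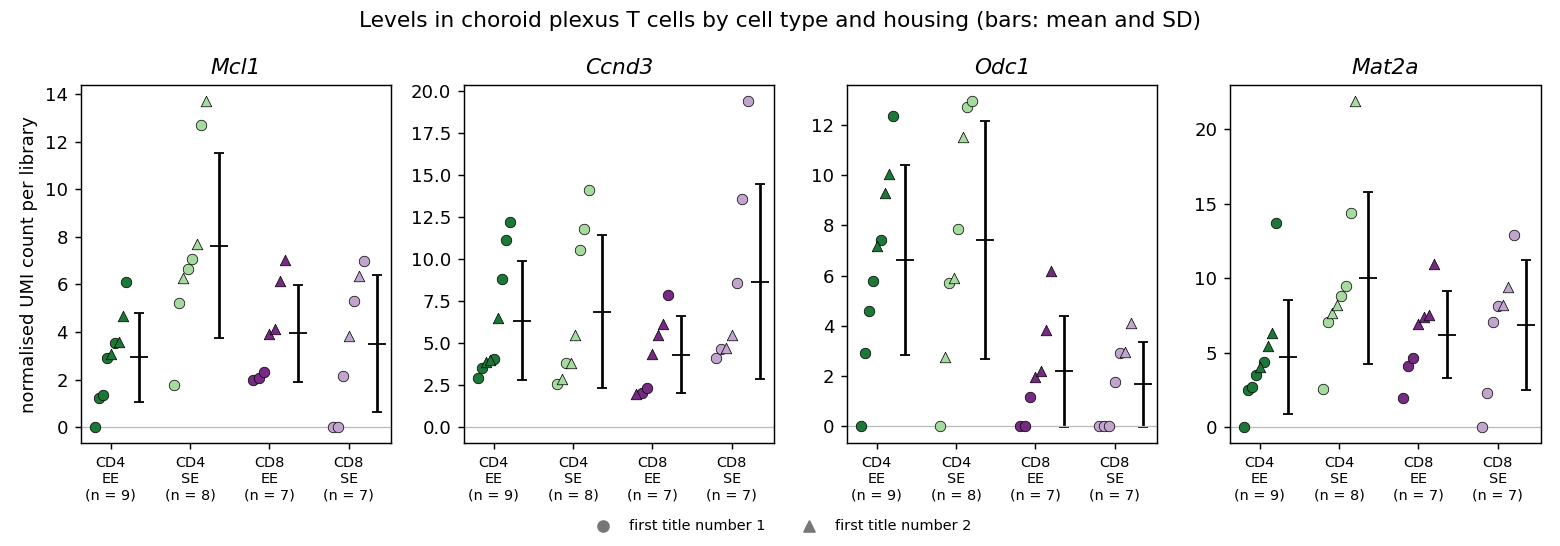
Normalised UMI count (vertical axis, linear, a separate scale for each gene) of Mcl1, Ccnd3, Odc1 and Mat2a in each library, by cell type and housing. Circles are libraries with first title number 1 and triangles those with number 2, and the black bars give the mean and SD of a group. For Mcl1, 6 of the 8 CD4 SE libraries lie above all 9 CD4 EE libraries. For Odc1, 9 of the 17 CD4 libraries lie above all 14 CD8 libraries.

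The mean normalised count of Mcl1 was lowest in CD4+ T cells from EE mice and highest in CD4+ T cells from SE mice. In log2(normalised count + 1) the mean was as low in CD8 SE (1.78) as in CD4 EE (1.79). In CD4 EE the lowest, median and highest normalised counts of Mcl1 were 0, 3.07 and 6.10, with a mean of 2.94 ± 1.87 (SD, n = 9). In CD4 SE they were 1.75, 6.85 and 13.7, with a mean of 7.63 ± 3.89 (n = 8). All 9 EE libraries lay below the SE mean, 6 of the 8 SE libraries lay above every EE library, and the ranges overlapped through 2 SE libraries. The SE mean was 2.59 times the EE mean, and the difference of EE minus SE was -1.17 ± 0.404 in log2(normalised count + 1), a scale that understates differences of low genes. It was -1.20 among libraries with title number 1 and -1.04 among those with number 2. Without CD4 SE replicate 2, in which no Cd4 was counted and Mcl1 stood at 12.7, it was -1.05. These values rest on 38 UMIs of Mcl1 in the CD4 EE and 77 in the CD4 SE libraries. The library at 0, CD4 EE replicate 5, was also the shallowest, and its 0 allows a level of up to 8.81 (3 UMIs). In CD4 EE the variance between libraries was 0.922 times the variance that counting alone gives, and in CD4 SE it was 1.72 times.

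In CD8+ T cells the Mcl1 means of both housing conditions lay close together, within the spread between libraries. Its levels were 1.96, 3.93 and 7.04 (lowest, median and highest) in CD8 EE with a mean of 3.94 ± 2.03 (n = 7), and 0, 3.82 and 6.97 in CD8 SE with a mean of 3.51 ± 2.88 (n = 7). The ranges overlapped almost entirely. The difference of EE minus SE was 0.42 ± 0.501 in log2, with a 95% interval of -0.61 to 1.45 and an adjusted p of 0.991 (limma, Benjamini-Hochberg over 484 genes). CD4 and CD8 libraries differed by 0.36 ± 0.336 (interval -0.31 to 1.04, adjusted p 0.553), but this small mean difference was made of -0.41 among EE and 1.18 among SE libraries. Title numbers 1 and 2 are split unevenly between CD8 EE and CD8 SE libraries. Within these numbers, the housing difference in CD8 was 0.17 and 0.050 and the difference between cell types 0.69 and 0.068. In the order of group means, CD4 SE stood above the other groups by more than the pooled SD of neighbours, and CD8 EE, CD8 SE and CD4 EE did not differ beyond it.

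Mat2a had the same order of housing conditions in CD4+ T cells. It ran from 0 through 4.02 to 13.7 (lowest, median and highest) in CD4 EE, with a mean of 4.73 ± 3.83 (n = 9), and from 2.54 through 8.50 to 21.9 in CD4 SE, with a mean of 10.0 ± 5.80 (n = 8). Of the 9 EE libraries 8 lay below the SE mean, the exception being replicate 1 at 13.7, and only 2 SE libraries lay above every EE library. The SE mean was 2.12 times the EE mean, the log2 difference of EE minus SE was -1.06 ± 0.417, and it was -1.06 and -0.98 within title numbers 1 and 2. Without CD4 EE replicate 1 the difference was -1.27, and without CD4 SE replicate 2, in which no Cd4 was counted, it was also -1.27. Mat2a was counted with 61 UMIs in CD4 EE and with 124 in CD4 SE, of which 63 came from replicate 6.

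In CD8+ T cells the Mat2a means of both housing conditions lay close together. Mat2a was at 1.96, 6.92 and 11.0 in CD8 EE (mean 6.22 ± 2.92, n = 7) and at 0, 8.13 and 12.9 in CD8 SE (mean 6.84 ± 4.36, n = 7), and the ranges overlapped. Its difference of EE minus SE was 0.12 ± 0.474 in log2 (interval -0.85 to 1.10, adjusted p 0.991). Only 5 of 11 alternative settings kept its sign, which was also opposite to that of the difference between the means. Between CD4 and CD8 libraries Mat2a differed by 0.069 ± 0.336 (interval -0.61 to 0.74, adjusted p 0.933). No neighbours in the order of its group means (CD4 SE, CD8 SE, CD8 EE, CD4 EE) differed beyond their pooled SD.

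The calls over all genes give the background for these differences. In CD4+ T cells 0 of 483 genes (0%) passed an adjusted p of 0.05 for EE against SE, and 18 (3.73%) had an unadjusted p under 0.05 by limma, 16 by edgeR and 14 by DESeq2, the latter tools calling 1 gene each, the chaperone gene Dnaja1. Mcl1 and Mat2a were among the 18, and since this contrast chose them nothing is read from that count. The epithelial marker Enpp2 was another of the 18, with a higher mean in EE (20.1 ± 5.57, n = 9) than in SE (13.1 ± 3.89, n = 8), a log2 difference of 0.60 ± 0.248 (adjusted p 0.992, limma), while that of Ttr was 0.22 ± 0.214. Its part in the differences of Mcl1 and Mat2a was not tested. Of the 483 genes, 0.207% had a lower log2 difference than Mcl1 and 0.621% a lower one than Mat2a. In CD8+ T cells 0 of 484 genes (0%) passed, and 12 (2.48%) had an unadjusted p under 0.05 by limma, 12 by edgeR and 6 by DESeq2, Ccnd3 among the limma genes, which was chosen on this contrast. These bulk libraries cannot tell fewer cells that carry a transcript apart from less of it per cell.

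Ccnd3, detected in all 31 libraries, had its lowest levels in CD8+ T cells from EE mice. In CD8 EE its lowest, median and highest levels were 1.96, 4.37 and 7.86, with a mean of 4.31 ± 2.31 (n = 7). In CD8 SE they were 4.13, 5.46 and 19.4, with a mean of 8.64 ± 5.79 (n = 7). All 7 EE libraries lay below the SE mean, 3 of them below every SE library, and 3 SE libraries lay above every EE library, so the middle of both groups overlapped. The SE mean was 2.00 times the EE mean, and the log2 difference of EE minus SE was -0.79 ± 0.382. It was -1.11 among libraries with title number 1, where the CD8 SE levels of 13.6 and 19.4 lie, and -0.22 among those with number 2, where 4 EE libraries averaged 4.49 ± 1.84 and 2 SE libraries, which by their titles share an animal, 5.08 ± 0.535. Leaving out single libraries moved the difference between -0.93 and -0.58. The markers of other cells had higher means in CD8 EE than in CD8 SE. Cst3 was at 10.7 ± 7.28 against 4.41 ± 3.99 (log2 difference 1.25 ± 0.472, adjusted p 0.950, limma). It was the only listed myeloid marker in the table, so which cells it came from is not settled. The epithelial Enpp2 was at 27.1 ± 29.0 against 11.8 ± 7.21 (0.67 ± 0.443, adjusted p 0.950) and the epithelial Ttr at 135 ± 73.2 against 102 ± 44.3 (0.31 ± 0.257, adjusted p 0.990). Their part in the difference of Ccnd3 was not tested.

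In CD4+ T cells Ccnd3 ran from 2.90 through 4.06 to 12.2 in EE (mean 6.33 ± 3.53, n = 9) and from 2.54 through 4.65 to 14.1 in SE (mean 6.87 ± 4.56, n = 8). Both groups covered nearly the same range, each with some libraries above 8 and most below. The difference of EE minus SE was -0.031 ± 0.371 in log2 (interval -0.79 to 0.73, adjusted p 0.992 by limma). CD4 and CD8 libraries differed by 0.079 ± 0.273 (interval -0.47 to 0.63, adjusted p 0.916), and 10 mice with libraries of both cell types gave a mean within-mouse difference of 0.038 (exact permutation p 0.887, two-sided). No neighbours in the order of the group means (CD8 SE, CD4 SE, CD4 EE, CD8 EE) differed beyond their pooled SD. The lower end of the interval in CD4 comes close to the difference described in CD8+ T cells.

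Odc1 had a higher mean in CD4+ than in CD8+ T cells under both housing conditions. In the 17 CD4 libraries its lowest, median and highest levels were 0, 7.17 and 12.9, with a mean of 6.99 ± 4.15. In the 14 CD8 libraries they were 0, 1.86 and 6.18, with a mean of 1.93 ± 1.91. Of the CD4 libraries 15 lay above the CD8 mean and 9 above every CD8 library, and 0 of the CD8 libraries lay above the CD4 mean. The CD4 mean was 3.63 times the CD8 mean, and the log2 difference of CD4 minus CD8, with housing as a term, was 1.46 ± 0.373. Of the 485 genes 36 (7.42%) passed an adjusted p of 0.05 in this comparison, 21 of them higher in CD4 and 15 lower (23 genes with the mouse as a block), and 99.2% of all genes had a lower log2 difference than Odc1. Since this contrast chose Odc1, nothing is read from its own call or from its place among all genes. None of the other members was called. The call of Odc1 was lost within libraries of title number 2, within EE and within SE libraries, where fewer libraries were fitted. The difference was 1.38 without CD4 SE replicate 2, in which no Cd4 was counted.

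The difference in Odc1 was seen within mice too, in libraries that are part of the same comparison. In all 10 mice with libraries of both cell types the measured level of Odc1 was higher in CD4 than in CD8, by 0.62 to 1.81 in log2 in the 6 mice whose CD8 libraries held it. In the other 4 mice the CD8 library was at 0. In 3 of these the measured CD4 level was 1.26, 1.22 and 1.91 times what that 0 allows (3 UMIs in the library). Those CD4 levels rest on 6, 6 and 11 UMIs, whose own counting error is not included, so the ratios are not lower bounds. In 1 EE mouse the CD4 level was 2.94 (1 UMI), below the 6.16 that the 0 allows, so the order there is not settled. With zeros entered as 0 the mean difference was 2.10 ± 0.958 (SD). Over all libraries Odc1 was higher by 1.30 among EE and by 1.62 among SE libraries, and by 1.99 within title number 1 and 0.96 within number 2. In CD8 libraries with number 1 Odc1 was close to the limit of detection, with 5 of 8 at 0 and 7 UMIs in all (mean 0.727 ± 1.11), while all 6 CD8 libraries with number 2 held it (mean 3.53 ± 1.55). The CD4 means were 6.57 ± 4.68 (n = 11) and 7.78 ± 3.18 (n = 6). A count of 0 in the CD8 libraries allows a level of up to 5.89 to 6.79, above the CD8 mean, so Odc1 was not detectable there at this depth rather than absent. Within mice Mcl1 (mean 0.30, exact permutation p 0.510, higher in CD4 in 7 of 10 mice) and Mat2a (mean -0.20, exact permutation p 0.60, 5 of 10 mice) did not differ between cell types beyond their spread. One SE mouse has a pair of CD8 libraries, averaged here, whose descriptions name another animal beside the one in their titles. Without that mouse the mean within-mouse difference was 2.26 ± 0.856 for Odc1, 0.30 for Mcl1, 0.079 for Ccnd3 and -0.35 for Mat2a, and the exact permutation p of Mcl1, Ccnd3 and Mat2a was 0.551, 0.793 and 0.355.

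**Figure D2:**
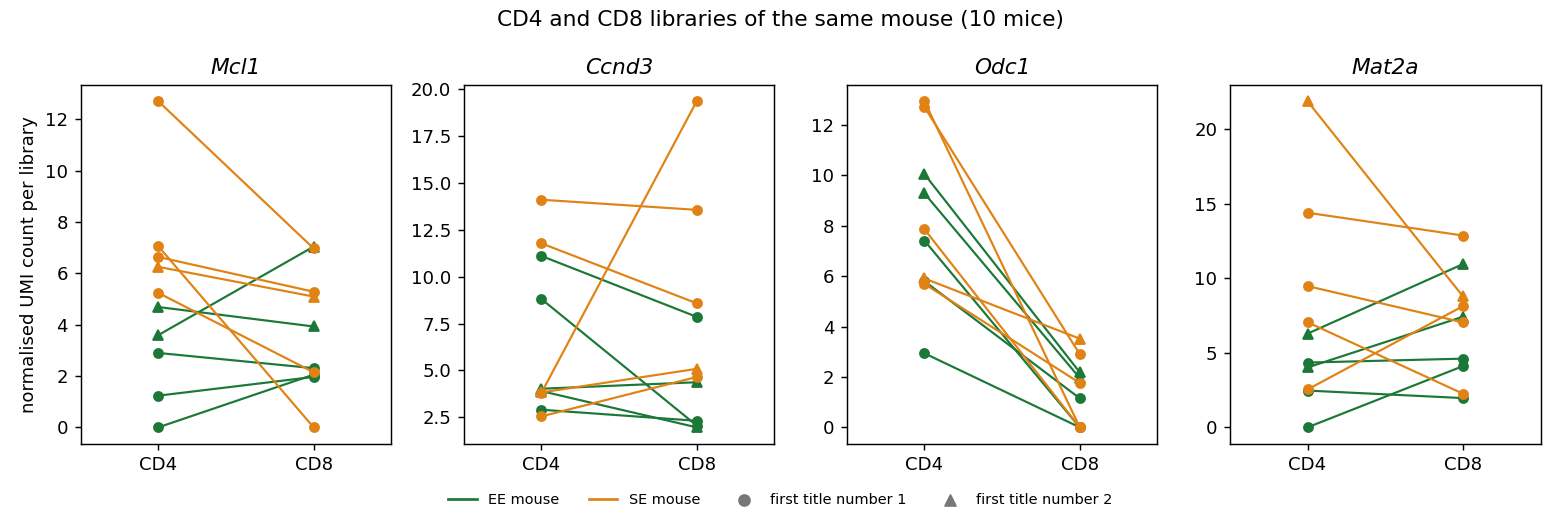
Normalised UMI count (vertical axis, linear, a separate scale for each gene) of the CD4 and the CD8 library of each of 10 mice, joined by a line. Green lines are EE mice, orange lines SE mice, circles have first title number 1 and triangles number 2, and a mouse is defined by its housing, first number and animal number. All 10 lines for Odc1 go down from CD4 to CD8, 4 of them to a CD8 library at 0, while those for Ccnd3 and Mat2a cross.

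A difference of Odc1 between housing conditions was not detectable beyond the spread between libraries. Its levels were 0, 7.17 and 12.4 in CD4 EE (mean 6.62 ± 3.79, n = 9) and 0, 6.88 and 12.9 in CD4 SE (mean 7.42 ± 4.74, n = 8). In CD8 they were 0, 1.96 and 6.18 in EE (mean 2.19 ± 2.21, n = 7) and 0, 1.76 and 4.09 in SE (mean 1.67 ± 1.70, n = 7). The difference of EE minus SE was -0.071 ± 0.494 in CD4 (interval -1.08 to 0.94, adjusted p 0.992) and 0.24 ± 0.566 in CD8 (interval -0.92 to 1.41, adjusted p 0.991) by limma. Neither interval reaches the size of the 1.46 described between the cell types, but they leave room for differences as large as -1.08 in CD4 and 1.41 in CD8. These fits had no term for title number, which is split unevenly between CD8 EE and CD8 SE. In CD8 7 of 10 alternative settings kept the sign, with values from -0.32 to 0.42. The difference was negative with title number as a term and within each number.

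**Figure D3:**
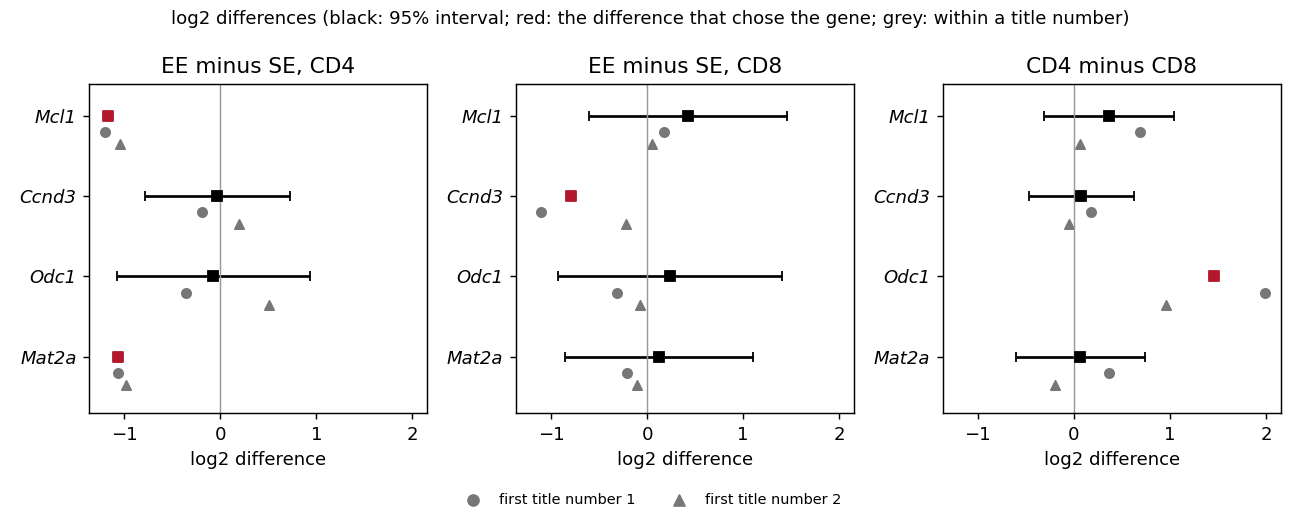
log2 differences (horizontal axis, log2 of normalised count + 1) of the 4 genes for EE minus SE in CD4, EE minus SE in CD8 and CD4 minus CD8. Black squares carry 95% intervals, red squares without an interval mark the differences that chose the gene, and grey circles and triangles are the values within first title numbers 1 and 2. All black intervals include 0, and both grey values of Mcl1 and Mat2a in CD4 lie near -1.

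Whether the housing difference itself differed between cell types was fitted as an interaction, in which 0 of 485 genes (0%) passed an adjusted p of 0.05 and 12 (2.47%) had an unadjusted p under 0.05 by limma, 9 by edgeR and 8 by DESeq2. Odc1, whose choice did not use it, had an interaction of -0.31 ± 0.754 (adjusted p 0.976 by limma). The values of the other 3 genes describe the differences already given, at -1.59 for Mcl1, -1.18 for Mat2a and 0.76 for Ccnd3. The housing differences in CD4 and in CD8 rest on different libraries, of which some come from the same mice.

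The first title number was used by no choice of the genes, and all 4 were tested against it with the 4 groups as a term. Of 485 genes 52 (10.7%) passed an adjusted p of 0.05 for number 2 against number 1, and none of the 4 members was among them. Odc1 (1.01 ± 0.367, adjusted p 0.0625), Mcl1 (0.80 ± 0.313, adjusted p 0.0889) and Mat2a (0.76 ± 0.324, adjusted p 0.122) had higher means with number 2, and Ccnd3 (-0.38 ± 0.277, adjusted p 0.453) a lower one. After each library was rescaled to the same total, Odc1 and Mcl1 passed, at an adjusted p of 0.0353 and 0.0455. Odc1 also passed when CD4 EE replicate 3, CD4 SE replicate 2, 7 or 8, or CD8 SE replicate 2 was left out, at adjusted p values of 0.0337 to 0.0491. The title number moved with depth, and Spearman's rho with the UMI total over 31 libraries was 0.488 for Mat2a, 0.487 for Mcl1, 0.343 for Odc1 and -0.24 for Ccnd3. Of the 19 libraries with number 1, 3 held no Mcl1, 7 no Odc1 and 2 no Mat2a, and in the 12 with number 2 each gene was detected throughout. Title number and depth cannot be told apart here.

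The other genes of the same pathways are mostly outside this table. Of 43 listed survival genes 5 were in it, Mcl1, the anti-apoptotic Bcl2, the initiator caspase gene Casp8, Tpt1 and the antiproliferative Btg1. Apart from Mcl1, 0 of the 4 passed in any comparison by limma, edgeR or DESeq2, and an unadjusted p was under 0.05 for 2, 1 and 3 of them between CD4 and CD8 and for 0 by housing. Between CD4 and CD8 108 of all 485 genes (22.3%) had an unadjusted p under 0.05 by limma, 114 by edgeR and 127 by DESeq2. The pair with the lowest p between CD4 and CD8 were Bcl2 (-0.62 ± 0.296, adjusted p 0.206) and Btg1 (0.46 ± 0.220, adjusted p 0.206), by limma. The median log2 difference of the survival genes other than Mcl1 was -0.17 for EE against SE in CD4, with 3 of 4 lower, beside -0.036 over all genes, and 0.084 in CD8, beside 0.042.

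Of 49 genes of G1 and proliferation 6 were in the table, Ccnd3, its paralogue Ccnd2, the histone variant gene H2afz, Btg1, Btg2 and the quiescence factor gene Klf2, and 0 of the 5 other than Ccnd3 passed in any comparison by limma, edgeR or DESeq2. Between CD4 and CD8 an unadjusted p was under 0.05 for 4, 3 and 3 of the 5 by these tools, beside 22.3% of all genes by limma. H2afz (0.68 ± 0.254, adjusted p 0.0850) and Ccnd2 (0.65 ± 0.283, adjusted p 0.156) came nearest, with higher means in CD4 than in CD8, while Ccnd3 was at 0.079. Without Ccnd3 the median of the list was -0.23 for EE against SE in CD8, with 3 of 5 lower, and -0.046 in CD4. H2afz was at 4.12 ± 2.06 in CD8 EE and 7.09 ± 3.83 in CD8 SE (EE minus SE -0.61 ± 0.387, adjusted p 0.950), and Ccnd2 at 4.76 ± 1.98 and 7.28 ± 5.02 (n = 7 each). For both, as for Ccnd3, the ranges overlapped.

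Of 41 genes of polyamine and methionine metabolism 5 were in the table, Odc1, Mat2a, the antizyme gene Oaz1, whose product leads ornithine decarboxylase to degradation, Eif5a, whose product carries the polyamine-derived hypusine, and Slc3a2, the heavy chain of amino acid transporters. Apart from the members, 0 of 3 passed by limma, edgeR or DESeq2 between CD4 and CD8 or by housing, with 0 at an unadjusted p under 0.05. Oaz1 was at 5.87 ± 3.52 in CD4 (n = 17) and 5.26 ± 2.19 in CD8 (n = 14), a log2 difference of -0.080 ± 0.312 (adjusted p 0.924), whose sign is opposite to that of the difference between the means. Eif5a differed by 0.22 ± 0.244 (adjusted p 0.642) and Slc3a2 by 0.0041 ± 0.364 (adjusted p 0.995). The median log2 difference was 0.0041 over the 3 genes that are not members and 0.072 over all 485.

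The genes whose levels were most alike to Mcl1 over the 31 libraries were chaperone genes. By Spearman's rho these were the HSP40 genes Dnajb1 (0.678) and Dnaja1 (0.650) and the HSP70 gene Hspa1a (0.636), against a median of 0.031 over all other genes. With the means of group and title number subtracted, rho was 0.610, 0.313 and 0.391. These correlations are descriptions over libraries that share depth, group and preparation. In CD4, Dnajb1 stood at 11.0 ± 6.82 in EE against 25.2 ± 13.5 in SE, and Dnaja1 at 8.80 ± 4.34 against 24.7 ± 8.85 (n = 9 and 8). Both were picked for their likeness to Mcl1, which this contrast chose, so nothing is read from their lower means in EE. Of 47 listed genes of heat shock and of the early response to tissue dissociation, 24 were in the table, and 19 of them had lower means in EE than in SE in CD4 (median -0.37, beside -0.036 over all genes) and 18 in CD8 (median -0.23, beside 0.042). By limma 0 were called in either, while in CD4 edgeR and DESeq2 called 1 each (Dnaja1). In CD4 5 of the 24 had an unadjusted p under 0.05 by limma, beside 18 of all 483 genes (3.73%). The list was chosen with earlier results of these data known, so nothing is read from these counts. Their summed level was 226 to 544 in CD4 EE, 310 to 734 in CD4 SE, 199 to 426 in CD8 EE and 257 to 425 in CD8 SE. Its rho with Mcl1 was 0.477 over the 31 libraries, 0.508 within title number 1 (n = 19) and 0.545 within number 2 (n = 12). Within groups that rho was 0.283 in CD4 EE (n = 9), 0.381 in CD4 SE (n = 8), 0.857 in CD8 EE and 0.414 in CD8 SE (n = 7 each). For Mcl1 and Dnajb1 it was 0.317, 0.405, 0.857 and 0.847 in the same order. The part of the summed level in the difference of Mcl1 was not tested.

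Mcl1 was itself the second most alike gene to Mat2a (rho 0.572, and 0.386 with means subtracted), after Snrnp70 (0.610) and before Rpl36a (0.526). The rho of Mcl1 and Mat2a differed in sign between groups, at 0.817 in CD4 EE (n = 9), -0.67 in CD4 SE (n = 8), 0.893 in CD8 EE and 0.378 in CD8 SE (n = 7 each). Between the other members rho was 0.50 for Mcl1 and Odc1 and lay between -0.20 and 0.090 for the rest. Ccnd3 had no close neighbour, with Rnaset2a (0.473), Arpc5 (0.436) and Atp6v0e (0.40) first.

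Odc1 was most alike to Tnfrsf18, which encodes the costimulatory receptor GITR, known for its high level on regulatory and activated T cells. Their rho was 0.766 over the 31 libraries, 0.775 within title number 1 and 0.748 within number 2, and 0.649 with the means of group and title number subtracted. Sod1 (0.571) and Malat1 (0.540) followed. Tnfrsf18 had a log2 difference of 1.23 ± 0.327 for CD4 minus CD8. It stood at 8.05 ± 5.81 in CD4 EE, 5.28 ± 3.49 in CD4 SE, 1.94 ± 0.373 in CD8 EE and 1.59 ± 1.26 in CD8 SE. Since it was picked for its likeness to Odc1, which this contrast chose, its difference is a description, with no test. Both genes differ between the cell types, which by itself raises the pooled rho. Within groups the rho of Odc1 and Tnfrsf18 was 0.483 in CD4 EE (n = 9), 0.738 in CD4 SE (n = 8), 0.234 in CD8 EE and 0.561 in CD8 SE (n = 7 each). Of the 24 genes of heat shock and dissociation 22 had higher means in CD4, at a median log2 difference of 0.56 beside 0.072 over all genes. By limma 3 were called higher and 1 lower (Nr4a2), beside 36 of all 485 genes (7.42%) called. The list was chosen with earlier results of these data known, so nothing is read from these counts. The summed level had a rho of 0.376 with Odc1, of 0.513 within title number 1 (n = 19) and -0.18 within number 2 (n = 12). Its part in the difference of Odc1 was not tested.

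**Figure D4:**
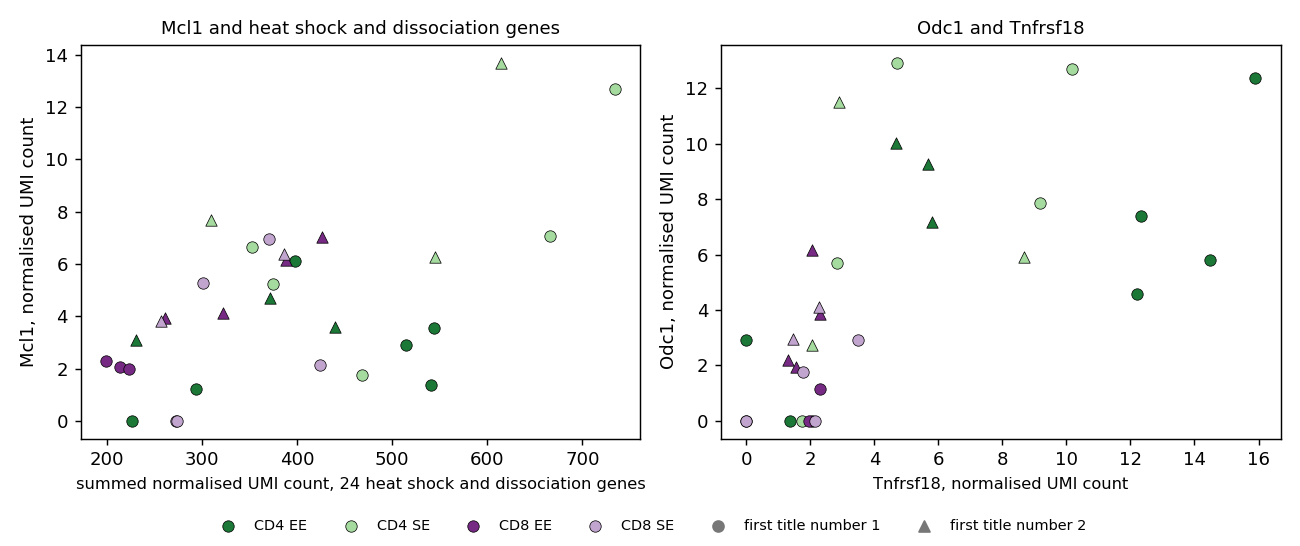
Left, Mcl1 (vertical axis) against the summed level of 24 genes of heat shock and dissociation (horizontal axis), and right, Odc1 against Tnfrsf18, all as normalised UMI counts on linear axes, 1 point per library. Colours give the 4 groups, circles have first title number 1 and triangles number 2. The 2 libraries with the highest Mcl1, both CD4 SE, have 2 of the 3 highest summed levels, and all CD8 libraries lie below 4 in Tnfrsf18.

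Reads of some of these genes may not be theirs alone. Of the 31-base words of the Odc1 transcripts 31.3% also occur in transcripts of 20 other genes, foremost the Odc1-like Gm7993, Gm9115 and Gm17709, none of which is in the table, so the level of Odc1 is uncertain where the counting could split or drop shared reads. The share was 9.15% for Mat2a (with Gm9523), 4.32% for Ccnd3 (foremost Ccnd3-ps) and 0.498% for Mcl1. Mat2a overlaps Particl and Ccnd3 overlaps Bysl on the opposite strand, and whether the counting used the strand is not given in the sources used here.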

How the data were processed

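Each sorted pool was lysed and its cDNA tagged with UMIs. The authors removed adaptors with cutadapt, mapped reads with STAR (2.4.0a) to mm10, counted UMIs per gene of GRCm38, left out genes of low abundance and normalised depth with DESeq2. The deposited signal is the UMI count divided by 1 size factor per library, for 485 genes with means between 2.66 and 146, so totals over the table are not full library depths. All value columns were assigned to a sample.

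UMI counts were recovered as whole multiples of 1 step per library (the smallest value in 27 columns, a fraction of it in 4), and 100% of values came out whole within 0.01. Over 106 pairs of libraries of a group the chi-square per degree of freedom was 1.24 to 4.49, so no pair was taken as 1 library. Replicates 5 and 6 of CD8 SE have titles that name 1 animal (number 5) while their descriptions name animals 5 and 6, so which mouse each came from is not settled, and both stayed in the fits but counted as 1 of 20 mouse identities in pairs. Where libraries share a mouse or cage, p-values measure the spread between libraries. A count of 0 allows up to 3 UMIs, which covers counting error only.

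Groups came from the sample titles, and a mouse was defined by the housing, first number and animal number in them. The test was limma 3.58.1 (R 4.3.3) on log2(normalised count + 1), two-sided, with a trended variance prior and Benjamini-Hochberg adjustment at 0.05 over all genes above 0 in a library compared. CD4 against CD8 had housing as a term. DESeq2 1.42.0 and edgeR 4.0.16 (quasi-likelihood) on the recovered counts, other pseudocounts (0.5, 4), a minimum mean of 5, rescaled libraries, terms for cells and title number, a mouse block and leaving out each library were alternatives. Scripts were tested on simulated data. Within-mouse differences were tested by exact permutation (scipy 1.17.1).

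The 4 genes and the gene lists were chosen with earlier results of these data known. Named genes were the 4 members, the 3 genes most alike to each by Spearman's rho, and, of the pathway lists, the genes past the threshold or else the 2 with the lowest p, and a few further list members were named after their values were seen. Dnaja1 in the count models and the gene called within title number 1 were also named after their values were seen. Promoters and gene positions came from RefSeq and GENCODE M21, and shared words were 31 bases long.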

Additional observations from a re-analysis of the deposited data

Results flagged for a closer look

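Mat2a stood at 13.7 normalised counts in CD4 EE replicate 1, far from the other libraries of its group, whose next highest level was 6.29. The gap was 0.542 of the range of the 9 libraries. The level rests on 9 UMIs. Of 16 such checks (4 genes in 4 groups) this was the 1 that stood out. Chance alone flags about 1 in 20 of such checks, so 1 among 16 is not set apart from chance.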

How the results depend on the processing

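The differences that chose the genes kept their sign in all alternatives and with any library left out. The alternatives reuse the libraries on which the genes were chosen, so the kept sign is a description and not a test of these differences. Mcl1 in CD4 lay between -1.36 and -0.72 (-1.39 to -0.95 with 1 library left out), Mat2a in CD4 between -1.21 and -0.69 (-1.27 to -0.78), Ccnd3 in CD8 between -1.11 and -0.22 (-0.93 to -0.58) and Odc1 between cell types between 0.84 and 2.05 (1.35 to 1.63). The smallest Mcl1 and Mat2a values came with a pseudocount of 4, which shrinks low genes by construction. None of the tested differences of the 4 genes passed in any alternative of the housing and cell type comparisons.

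The number of genes called for EE against SE was 1 in CD4 under DESeq2, edgeR and a pseudocount of 4 (Dnaja1 each time) and 1 in CD8 within title number 1 (Hspa1a). Between CD4 and CD8 it was 55 under DESeq2, 14 at a mean of at least 5, 20 within each title number, 7 within EE and 14 within SE libraries, and 24 to 44 with 1 library left out. For title number it was 104 under DESeq2, 90 under edgeR, 25 within CD4 and 10 within CD8 libraries, and 46 to 69 with 1 library left out. Fewer libraries were fitted within numbers, housing conditions and cell types, and the cause of the other changes was not tested.

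With the mouse as a replicate block, which pairs libraries by the labels, 23 genes were called between CD4 and CD8, Odc1 stood at 2.05, and Mat2a turned to -0.15. The block turned or lost no other value of the 4 genes. EE and SE libraries hold no shared animal, so the block was used only between cell types.

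Small differences changed sign. Ccnd3 and Odc1 in CD4 were 0.20 and 0.51 within title number 2, and ranged from -0.17 to 0.13 and from -0.46 to 0.26 with 1 library left out. In CD8, Mat2a was -0.091 under DESeq2, -0.087 under edgeR, -0.0064 at a pseudocount of 4, -0.16 with title number as a term, -0.20 and -0.11 within numbers 1 and 2, and -0.31 to 0.32 with 1 library left out. Odc1 in CD8 was -0.22 with title number as a term, -0.32 and -0.075 within the numbers and -0.0054 to 0.47 with 1 library left out. Between CD4 and CD8, Mat2a was -0.0017 after rescaling, -0.19 within number 2, -0.51 within EE libraries and -0.16 to 0.22 with 1 library left out, Ccnd3 was -0.047 within number 2 and -0.31 within SE libraries, and Mcl1 was -0.41 within EE libraries. The interaction of Odc1 was 0.018 with title number as a term, 0.58 within number 2 and -0.70 to 0.018 with 1 library left out. For title number, rescaling brought Mcl1 (0.88) and Odc1 (1.08) past the threshold, and Odc1 lay between 0.87 and 1.17 with 1 library left out, and passed without CD4 EE replicate 3, CD4 SE replicates 2, 7 or 8, or CD8 SE replicate 2. The cause of these changes was not tested. At a mean of at least 5, Mcl1 and Odc1 had no value outside the CD4 comparison. Depth limits single values most, since 13 of 31 libraries held at most 3 UMIs of Mcl1 and 11 at most 3 of Odc1.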
